A study of Rattus norvegicus with 8 samples.

Results

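Med17, which encodes a subunit of the transcriptional Mediator complex, was measured in the ventral prostate of 8 tumour-bearing rats, and its RNA averaged 2.28-fold higher in 4 telmisartan-treated rats than in 4 control rats. The gene is listed under its older name Crsp6, and it was taken by that name from the 8 scanner files. It is 1 gene with 1 probe and 1 spot per array, of 35535 gene names and 41012 probes in all. Genes are counted here by distinct name, so a gene listed under several names may count more than once. Med17 was picked because of its difference between these groups, so the values of that contrast are given as a description and carry no test.

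Mediator is a large complex that carries signals from DNA-bound activators to RNA polymerase II at promoters. It is built of a head, a middle and a tail held together by the scaffold subunit Med14, and a kinase module can join it. Med17 is a core head subunit, and the head module contacts RNA polymerase II. Med1, in the middle, is the subunit best known for contacts with nuclear receptors, among them the androgen receptor on which the prostate depends.

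All 8 rats were heterozygous male TRAP rats, labelled as strain SD and aged 15 weeks. TRAP rats carry a transgene for a simian virus large T antigen under the prostate-specific probasin promoter and develop adenocarcinoma of the prostate. The 4 treated rats (Telmisartan 302, 303, 305 and 306) drank water with telmisartan, which blocks type 1 receptors of angiotensin II. The dose was 10 mg/kg daily over 12 weeks, starting when the rats were 3 weeks old. The 4 others (Control 102, 103, 104 and 106) had basal diet and tap water. Each TRAP prostate RNA, labelled with Cy5, shared an array with Cy3-labelled RNA of normal ventral prostate of male F344 rats aged 6 weeks. The study had 36 TRAP rats in 3 groups, and its remaining group, on 2 mg/kg daily, was not analysed here. The treatment label gives the 2 doses together, and the design text assigns the arrays to the higher one.

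Dyes were never swapped, and the sources used here do not say whether the reference was 1 RNA pool. A level over the reference therefore mixes strain, age, transgene and dye, while telmisartan and control rats share all of these. The arrays lay on 2 slides with 2 rats of each group on each. On both slides the treated rats held array positions 1 and 2 and the control rats positions 3 and 4, so array position and group cannot be told apart. Spots well above background in Cy5 made up 59.2 to 68.1% of the array in telmisartan rats, against 64.7 to 76.8% in control rats (exact permutation p = 0.0571, smallest possible 0.0286). In Cy3 the means were 49.5% ± 0.908 on telmisartan arrays and 51.2% ± 1.47 on control arrays (SD, n = 4 each, exact permutation p = 0.114).

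Because every Med17 value comes from 1 oligonucleotide, the start of the probe is shown, from its 5′ end, in lower case with 1 run in capitals. The probe has 60 bases, and bases 1 to 30 are given as the scanner files list them.
Med17 probe: gTACAGTTTTAGTAtgcagtatggggagat
The capitals, bases 2 to 14, mark the longest exact run that the whole probe shares with any other probe of the array on the same strand. That run of 13 bases lies in a probe named only by the expressed sequence BE113129. On the opposite strand the longest shared run was 17 bases, with the probe of Xrn1, an exoribonuclease gene. G and C made up 35% of the Med17 probe, against 30 to 55% in the probes of 13 other Mediator genes and a median of 43.3% over all probes. The files name no genome build, and the RefSeq table of the rat assembly GRCr8 places the gene on chromosome 8. The exon or untranslated region that the probe matches was not determined here. The probe was compared only with other probes and not with transcripts, so its link to Med17 rests on the name in the files.

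Over the reference, Med17 had log2 ratios of Cy5 to Cy3 of -0.27, 0.28, -0.27 and -0.26 in Telmisartan 302, 303, 305 and 306. The ratios were -1.08, -1.46, -1.35 and -1.39 in Control 102, 103, 104 and 106. The 2 groups did not overlap, and a gap of 0.80 separated the lowest telmisartan rat from the highest control rat. Telmisartan 303 stood above the other treated rats, which lay close together, and Control 102 was the highest of the control rats. The means were -0.13 ± 0.27 in telmisartan rats and -1.32 ± 0.17 in control rats (SD, n = 4 each), a difference of 1.19 (SE 0.15).

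As a percentage of the reference, Med17 stood at 82.8, 121, 83.1 and 83.3% in Telmisartan 302, 303, 305 and 306, against 47.4, 36.5, 39.3 and 38.1% in Control 102, 103, 104 and 106. Treated rats were thus 1.10-fold below normal F344 prostate on average, and 3 of the 4 lay below it. Control rats were 2.49-fold below it, and all 4 lay below it. Of the 23186 genes tested, 29.5% were below the reference in all 4 telmisartan rats and 30.9% in all 4 control rats. The share of genes with a lower mean ratio than Med17 was 33.2% in telmisartan rats and 3.57% in control rats.

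The difference between the groups lay mainly in the Cy5 channel. The Med17 spot had Cy5 intensities of 6048, 12644, 8537 and 8716 in Telmisartan 302, 303, 305 and 306. In Control 102, 103, 104 and 106 the Cy5 intensities were 3429, 3051, 3664 and 4279. Even before any normalization, all 4 treated rats were above all 4 control rats. The local Cy5 background was low, at 66.5 to 73 on telmisartan arrays and 67 to 73 on control arrays. The spot was thus 90.9 to 183 times its background in telmisartan rats and 42.4 to 58.6 times in control rats. It was well above background in both channels on all 8 arrays, with 0 saturated spots and 0 outlier flags.

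The reference channel on the same spot overlapped between the groups before normalization. Its Cy3 intensities were 1780, 1451, 1856 and 1653 on the arrays of Telmisartan 302, 303, 305 and 306. They were 1676, 1877, 1785 and 1685 on those of Control 102, 103, 104 and 106. Telmisartan 303, which had the highest Cy5 intensity, also had the lowest Cy3 intensity, and the group ranges overlapped. The 2 channels differ in overall brightness, so Cy5 and Cy3 intensities of the spot are not set against each other.

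With each channel normalized by itself between arrays, the Cy5 values averaged 13.04 ± 0.21 on the log2 scale in telmisartan rats and 11.84 ± 0.14 in control rats (SD, n = 4 each). The Cy5 difference was 1.19, as large as that of the ratio, and the groups did not overlap. The same Cy3 averages were 10.66 ± 0.08 on telmisartan arrays and 10.70 ± 0.03 on control arrays, a difference of -0.04 with overlap. In the scanner software's own processed signal, Cy3 ran from 3106 to 3650 on telmisartan arrays and from 3662 to 4003 on control arrays, without overlap and with a ratio of means of 0.895. The processed Cy5 signal ran from 2474 to 3778 in telmisartan rats and from 1254 to 1621 in control rats, with a ratio of means of 2.16. Within slide 1 alone the ratio differed by 1.27 between the groups and within slide 2 by 1.10.

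**Figure D1:**
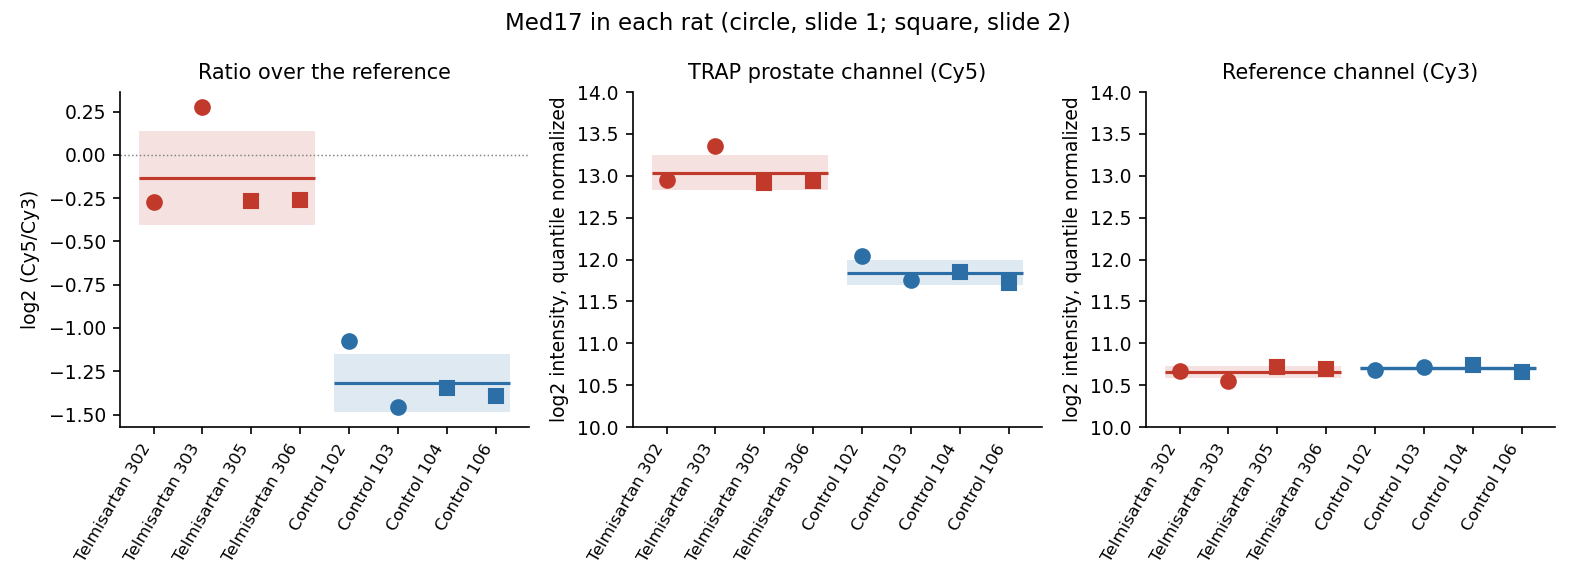
Med17 in each rat: the log2 ratio of Cy5 to Cy3 at the left, and the log2 intensity of the Cy5 and the Cy3 channel, each quantile normalized between arrays, in the middle and at the right (points are rats, lines are group means and bands are ± SD, n = 4 each). The 4 telmisartan rats lie above the 4 control rats in the ratio and in Cy5, and the groups overlap in Cy3 as normalized here.

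Med17 varied among rats somewhat more than most genes. Its pooled SD within groups was 0.23, against a median of 0.18 over the genes tested, and 67.3% of them varied less. There was no second Med17 probe or spot to set beside it. As a gauge of error from spot to spot, the 172 probes spotted at least 5 times per array and well above background had a median SD of 0.05 (log2) between their spots.

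In the limma fit over all genes, Med17 had the smallest unadjusted p of the 23186 genes, which is the value it was picked for. Its adjusted p was 0.288, above the threshold of 0.05, and is given as a description and not as a test. That first rank was not kept in every setting: it was 3 with the scanner's ratios and with the series matrix, 5 without Control 104, and 6 on slide 2 and 27 on slide 1 alone. It was 2 without Control 102 and without Telmisartan 302, 303 or 306. No gene passed (0%), while 4.82% of genes had an unadjusted p under 0.05, 2.74% higher and 2.07% lower in telmisartan rats. Groups that did not overlap were found for 2.73% of genes, 1.5% higher and 1.23% lower. Differences larger in size than that of Med17 were found for 18 genes, 8 of them higher in telmisartan rats, and for 1 of the 18 the groups did not overlap.

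The other Mediator subunits had small differences that overlapped between the groups. Among genes that the files name Med with a number, Crsp or Thrap, 13 were measured beside Med17, one of them Thrap3, which is not a core subunit. Their median difference was 0.03, with a range of -0.14 to 0.12, against a median of -0.002 over all genes tested. Of the 13, 9 were higher and 4 lower in telmisartan rats by sign alone, and 49.4% of all genes were higher. By current symbols 25 of the 32 other subunits listed for the complex were on the array, and all 25 were tested. Their median difference was 0.01 and the range -0.14 to 0.18, with 14 higher and 11 lower by sign. The limma fit called 0 of the 25, against 0% of all genes, and their smallest adjusted p was 0.982. An unadjusted p under 0.05 was reached by 0 of the 25, against 4.82% of all genes. The groups overlapped for all of the 25, while 2.73% of all genes did not overlap. In so short a list these counts of 0 lie near the background.

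The 5 other head subunits measured, which share a module with Med17, ranged from -0.06 to 0.06 in difference. Med6 had ratios of 0.38, 0.53, 0.31 and 0.38 in Telmisartan 302, 303, 305 and 306, against 0.30, 0.62, 0.38 and 0.24 in Control 102, 103, 104 and 106 (difference 0.01, SE 0.11). Med8 had -0.13, 0.02, -0.002 and -0.07 in the same telmisartan rats, against 0.18, -0.35, -0.06 and -0.11 in the control rats (difference 0.04, SE 0.12). In both genes the rats of the 2 groups were interleaved. Med11 had 0.54, 0.52, 0.66 and 0.62 in telmisartan rats, against 0.47, 0.46, 0.64 and 0.56 in control rats, a difference of 0.06 (SE 0.09). Med20 averaged -0.38 ± 0.07 in telmisartan rats and -0.37 ± 0.03 in control rats, and its difference of -0.005 (SE 0.08) turned positive under 8 of 24 alternative settings. Med22 had -0.03, 0.12, -0.16 and -0.22 in telmisartan rats, against 0.05, 0.07, 0.02 and -0.19 in control rats, a difference of -0.06 (SE 0.11). Med18, the remaining head subunit listed, had no probe under that name.

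Med14, the scaffold, had ratios of 0.63, 0.64, 0.47 and 0.62 in telmisartan rats, against 0.41, 0.72, 0.46 and 0.44 in control rats. Its difference was 0.08 (SE 0.10), and a second Med14 probe gave -0.09. Med1, the contact of nuclear receptors, had -0.35, -0.19, -0.31 and -0.25 in telmisartan rats, against -0.03, -0.44, -0.22 and -0.17 in control rats. It differed by -0.06 (SE 0.11), while its other 2 probes gave -0.05 and 0.20. The probe that gave 0.20 was well above background in Cy3 on 0 of the 8 arrays. The signs of Med14 and Med1 thus depend on the probe, that of Med1 only through this probe dim in Cy3, and their groups overlapped.

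The 6 middle subunits measured had a median difference of 0.06 and the 8 tail subunits one of 0.02. Med19, a middle subunit, had the lowest difference of the 25, -0.14 (SE 0.10), with means of -0.18 ± 0.10 in telmisartan rats and -0.05 ± 0.14 in control rats. Of the 5 kinase module genes, 1 was higher and 4 were lower by sign. Cdk19, a kinase of that module, had the highest difference of the 25, 0.18 (SE 0.14), with means of -0.62 ± 0.13 in telmisartan rats and -0.79 ± 0.28 in control rats. A second Cdk19 probe gave 0.13. No probe was named Med12, but LOC679693, described in the files as similar to that subunit and looked up after values were seen, had 0.29 ± 0.10 in telmisartan rats and 0.27 ± 0.03 in control rats at its tested probe. Of its 2 other probes, one, well above background in Cy5 on all 8 arrays, had 0.60 ± 0.28 in telmisartan rats and 0.30 ± 0.22 in control rats, a difference of 0.30 that is larger than that of any of the 25 subunits. The remaining one, well above background on 6 arrays, differed by 0.05, so the size of the difference depends on the probe.

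The standing of Med17 within the complex differed between the groups. As the 25 others differed little, this restates the difference that Med17 was picked for. Probes cannot be compared for their own brightness, but each ratio is relative to the reference on the same probe. Dyes were not swapped, so a dye effect of a probe would stay in its ratio. Among the 26 subunits Med17 ranked 13th from the lowest in telmisartan rats, between Cdk8 at -0.18 and Med22 at -0.07. In control rats it ranked lowest, and the next was the middle subunit Med21 at -1.04. The control ranges of Med17, -1.46 to -1.08, and of Med21, -1.20 to -0.83, overlapped. Means of the 25 others ran from -0.95 to 0.61 in telmisartan rats and from -1.04 to 0.58 in control rats. None of the 25 had a larger SD within groups than Med17, as theirs were 0.05 to 0.22.

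**Figure D2:**
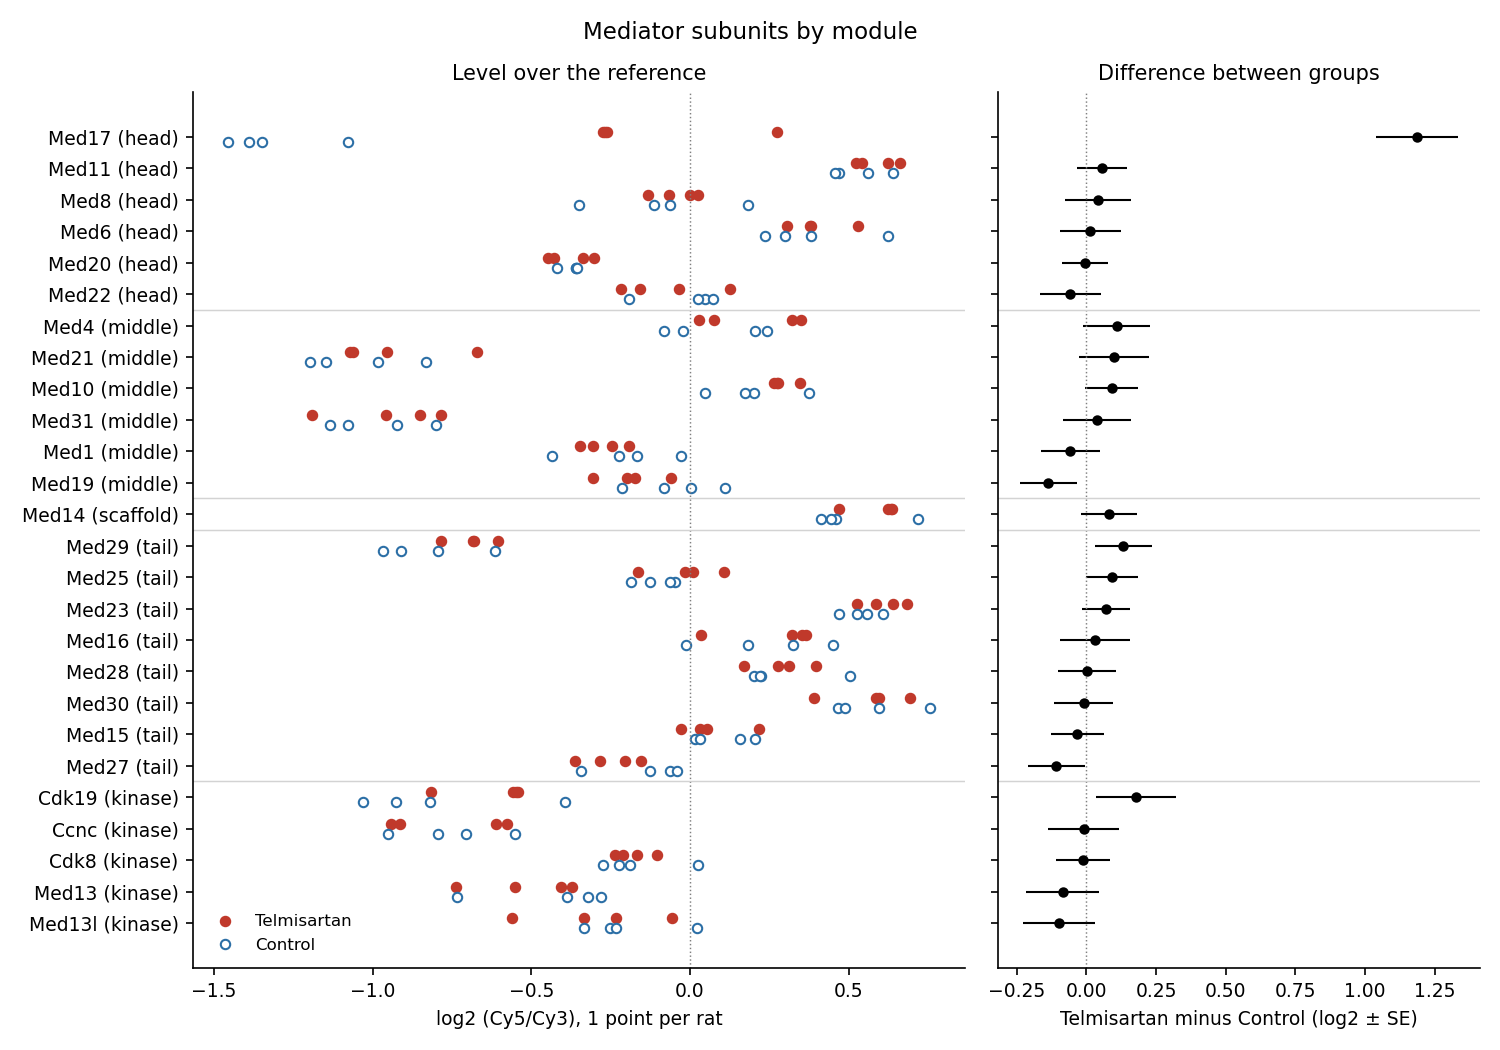
Log2 ratios over the reference of the 26 measured Mediator subunits in each rat, grouped by module (left; filled points are telmisartan and open points control rats), and the difference of telmisartan minus control with its SE (right). The 25 other subunits lie between -0.14 and 0.18 in difference, and Med17 lies at 1.19.

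RNA polymerase II and the factors that assemble with it at promoters, which Mediator works with, were read from 2 lists. Of 9 measured polymerase subunits, 4 were higher and 5 lower by sign, with a median difference of -0.05 and a range of -0.11 to 0.19. Of 16 measured general factors, 6 were higher and 10 lower, with a median of -0.01. Gtf2e1, a subunit of TFIIE, had the largest difference in size, -0.26 (SE 0.13), with overlap. With each channel normalized by itself, its Cy5 value was higher by 0.14 on telmisartan arrays and its Cy3 value by 0.21. None of the 25 had an unadjusted p under 0.05, against 4.82% of all genes, and the limma fit called 0 of them and 0% of all genes. In so short a list a count of 0 lies near that background.

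The genes beside Med17 on its chromosome were read in the order of the GRCr8 table, 5 measured genes on each side. Before it, Fut4, a fucosyltransferase gene, differed by 0.10, Mre11, a DNA break repair nuclease, by -0.09, Ankrd49 by 0.04, and Izumo1r, a folate receptor family gene, by 0.17. Panx1, which encodes a membrane channel and is the nearest measured gene on that side, differed by -0.36 (SE 0.30), with overlap. After it, Cep295, a centriole gene, differed by -0.10, Smco4 by 0.11 and Slc36a4, an amino acid transporter gene, by -0.01.

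The nearest measured gene after Med17, C8h11orf54, was the 1 of the 10 neighbours whose groups did not overlap, where 2.73% of all genes did not. It had ratios of -0.24, -0.28, -0.18 and -0.02 in Telmisartan 302, 303, 305 and 306, against -0.42, -0.39, -0.56 and -0.39 in Control 102, 103, 104 and 106. All treated rats were above all control rats, by a mean of 0.26 (SE 0.10), and the Cy5 channel normalized by itself gave a difference of 0.30. In limma its unadjusted p was 0.023 and its adjusted p 0.982, so it did not pass. The next gene, Taf1d, a subunit of the factor that selects promoters for RNA polymerase I, differed by 0.25 (SE 0.18), and its groups overlapped. Some annotated genes between these, such as Vstm5 and Hephl1, had no probe under that name.

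**Figure D3:**
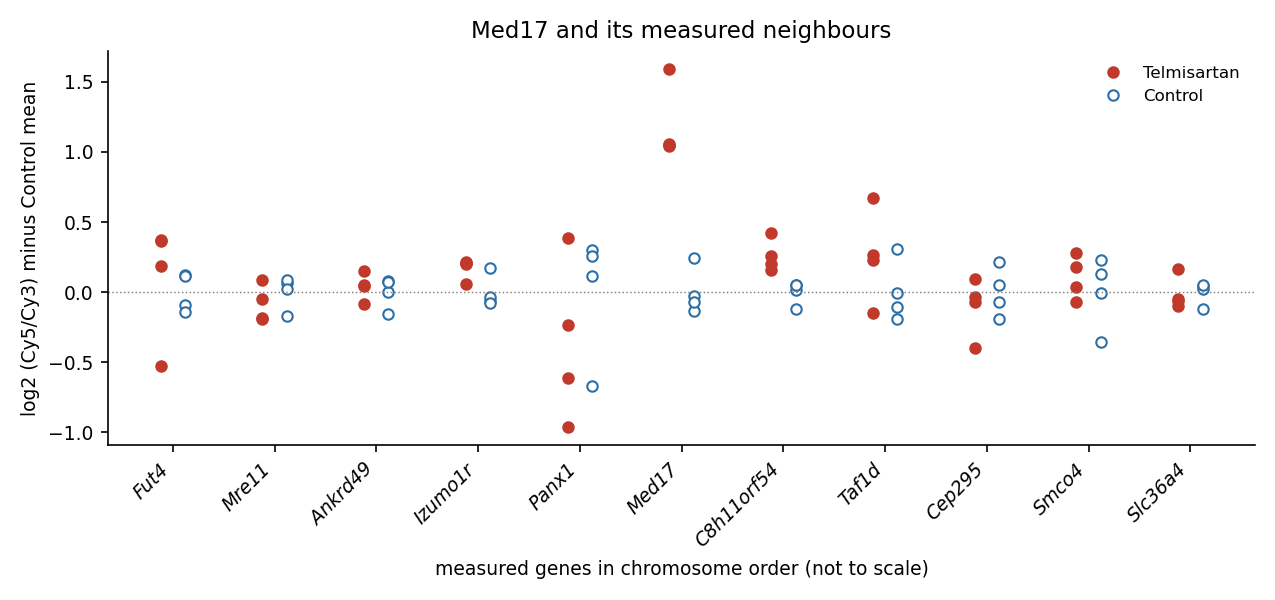
Log2 ratio of each rat minus the control mean of the gene, for Med17 and the 5 measured genes on each side in chromosome order, not to scale (filled points are telmisartan and open points control rats). Med17 stands far above its control mean in all 4 treated rats, by 1.19 on average, and C8h11orf54 and Taf1d stand at means of 0.26 and 0.25.

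The genes with a symbol whose pattern over the 8 rats was most like that of Med17 were ranked by the mean absolute difference between log2 ratios centred on the mean of each gene. Nearest was Upk1b, a tetraspanin of urothelial plaques, at 0.248, which was higher by 0.81 in telmisartan rats with overlap. MGC116197 followed at 0.250 with a difference of 0.71. Ddit4l, an inhibitor of mTOR signalling, lay at 0.259 with a difference of 0.72. Rimbp2, a scaffold gene of the presynaptic active zone, lay at 0.276 with a difference of 1.05 and Dapl1 at 0.283 with one of 0.78. The groups of these last 4 genes did not overlap. Picking genes for likeness to Med17 favours this, though it does not fix it, so it is no separate result. Their adjusted p in limma ran from 0.803 to 0.923 with that of Upk1b included.

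Even these nearest genes parted from Med17 in single rats. Upk1b was at -1.81 in Control 104 and at -2.38, -2.86 and -2.81 in the other 3 control rats, whereas Med17 in Control 104 lay among the others. Rimbp2 was lowest of the treated rats in Telmisartan 305, at -2.35, while Med17 in that rat matched Telmisartan 302 and 306.

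**Figure D4:**
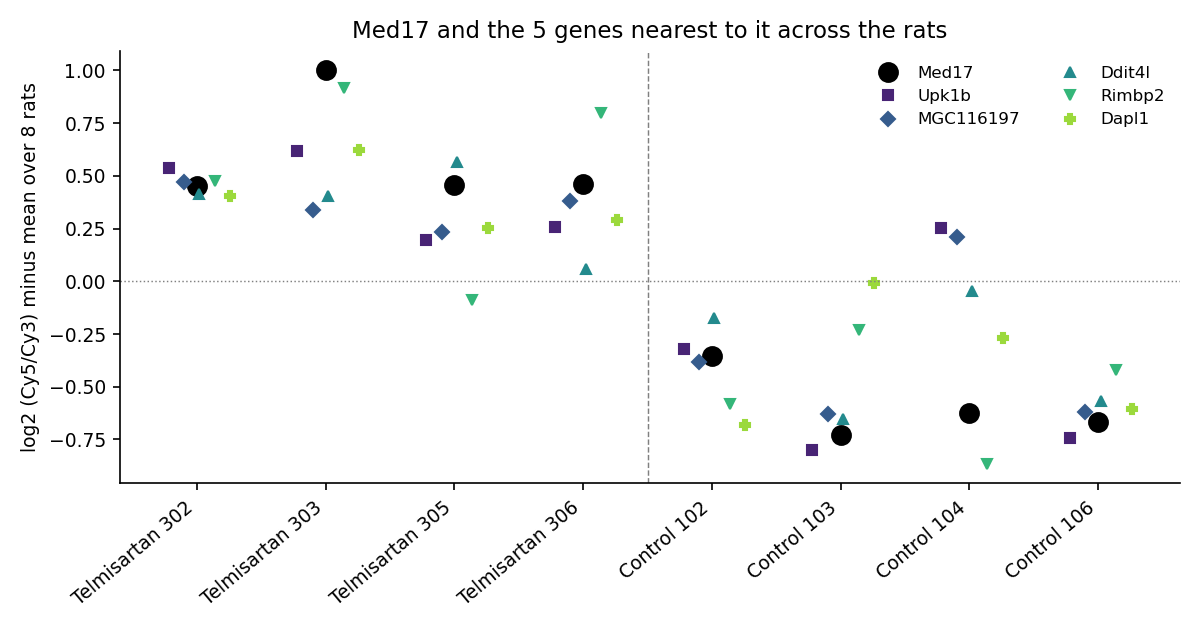
Log2 ratio of each rat minus the mean of the gene over the 8 rats, for Med17 and the 5 genes nearest to it, with telmisartan rats at the left of the dashed line and control rats at the right. All 6 genes are higher on average at the left, and Upk1b and MGC116197 lie above their own mean in Control 104, where Med17 lies below.

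These are bulk tissue values, in which fewer cells of a type and less RNA per cell cannot be told apart. Markers of several cell types differed by sign between the groups beside Med17. All 7 T cell markers were lower by sign in telmisartan rats, with a median difference of -0.72, and their mean per rat ran from 0.317 to 2.17 there and from 0.650 to 2.45 in control rats. Of 6 macrophage markers 5 were lower by sign, with a mean per rat of 0.504 to 1.47 in telmisartan rats and 1.07 to 1.55 in control rats. The 4 basal cell markers were all higher by sign, with means of -1.30 to -0.54 in telmisartan rats and -2.07 to -0.87 in control rats. Smooth muscle markers were higher for 4 of 5, with means of -1.50 to -0.90 in telmisartan rats and -1.72 to -1.22 in control rats. Of 6 fibroblast markers 3 were higher and 3 lower, and of 5 endothelial markers 2 were higher and 3 lower. The groups overlapped in each of these list means, and 0 of the markers passed in limma. An unadjusted p under 0.05, found for 4.82% of all genes, was reached by 0 of 7 T cell, 0 of 6 fibroblast and 0 of 5 endothelial markers. It was reached by 2 of 6 macrophage markers, both lower, by 1 of 4 basal and 3 of 5 smooth muscle markers, all higher, and by 1 of 9 luminal epithelial markers. The last was Scgb1d2, a prostatein component, with a difference of 0.81 and an adjusted p of 0.923 in limma, while the luminal list differed by 0.12 in its mean. The 3 smooth muscle markers, Tpm2, Myh11 and Mylk, differed by 1.04, 0.81 and 0.42 on slide 1. On slide 2 they differed by only 0.09, -0.03 and 0.24. The groups did not overlap for 1 of the 6 macrophage markers, Itgam, at a difference of -0.55. With each channel normalized by itself, Itgam differed by -1.07 in Cy5 and also by -0.41 in the Cy3 reference. The groups overlapped for all markers of the other lists, while 2.73% of all genes did not overlap. Telmisartan 302 had the lowest T cell and macrophage means of the 8, 0.317 and 0.504, and a Med17 ratio of -0.27. Control 103 had the next lowest T cell mean, 0.650, and the lowest Med17 ratio, -1.46. The part of these cell types in the Med17 difference was not tested.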

How the data were processed

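Per the file headers, the arrays were read with Agilent Feature Extraction, version 9.1 per the submitters' processing notes. The deposited scanner files hold uncorrected spot and background intensity values in both channels, flags for outliers, saturation and signal above background, and log10 ratios of Cy5 over Cy3 processed by the software per the file headers. The deposited series matrix holds log10 values that matched those ratios within 0.005 with column medians of 0, so scale, centring and direction are known. Intensities were corrected with normexp (offset 50) and normalized by loess within arrays in limma 3.58.1 (R 4.3.3), and files were read by data.table (version 1.17.8). Control and outlier spots were left out and spots of a probe averaged. Kept were probes with a value on all 8 arrays whose Cy5 signal was well above background on 4 or more, 1 per gene by highest mean intensity, giving 23186 genes. Of these, 11409 had a gene symbol other than a LOC or RGD number. Groups were compared by lmFit and eBayes, with Benjamini-Hochberg adjustment over all genes. Names came from the RefSeq GRCr8 table (10735 probes by accession, 5577 by symbol, 3730 by older symbol, 20970 kept the file's name). The fit was tested on simulated data. Named genes are Med17, the other head subunits, Med1, Med14, the subunits of highest and lowest difference, the neighbours, the 5 most like genes, and any listed Mediator, polymerase or preinitiation gene with an unadjusted p under 0.05. Gtf2e1, Med21, Cdk8, LOC679693, Itgam, Scgb1d2, Tpm2, Myh11 and Mylk fall outside this rule and were chosen after values were seen. Members and lists were chosen with earlier results of these data known. The numbers in the labels, such as 302 or 102, were taken for those of separate rats; were they not, p-values would measure only the spread between these samples. The number of arrays limits the precision.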

Additional observations from a re-analysis of the deposited data

Results flagged for a closer look

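In 7 of 50 groups of 4 rats checked, over 25 genes, 1 rat stood apart from the other 3 by more than the critical value of Dixon's test, where chance gives about 1 in 20. Med17 was at 0.28 in Telmisartan 303, against -0.27 to -0.26 in the other treated rats. Without that rat, the Med17 difference was 1.05. In Control 103, Med20 was at -0.42 against -0.36 in the others, and Med14 at 0.72 against 0.41 to 0.46. In Telmisartan 305, Med14 was at 0.47 against 0.62 to 0.64, and Cdk19 at -0.82 against -0.56 to -0.54. Among the neighbours, Izumo1r was at -0.11 in Telmisartan 302 against 0.03 to 0.05, and Slc36a4 at 0.071 in Control 104 against 0.22 to 0.24. The cause of these single values was not tested.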

How the results depend on the processing

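Over 24 alternatives, the Med17 difference ran from 1.05 to 1.30 and the groups did not overlap in any. The lowest and highest differences on leaving out 1 rat were 1.05 and 1.27, and the highest of all came with median centring. The adjusted p of Med17 ran from 0.111 to 1.00 and was under 0.05 in none. These values describe the contrast that Med17 was picked by and are not a test of it. The Cy3 reference channel alone gave -0.044. Groups without overlap became more common among all 23186 genes when fewer rats were used. They were found for 632 genes in the main fit, 5790 on slide 1 alone and 8386 on slide 2 alone. On leaving out 1 rat they were found for 843 to 1713 genes, and Med17 was picked from these same arrays. The median of the other Mediator genes ran from -0.015 to 0.063 on leaving out 1 rat and was 0.11 with median centring, where the median of all genes was 0.04. No alternative called any of them. Leaving out 1 rat gave 0 to 1 called genes over the array, 1 without Control 102 and 1 without Telmisartan 303, and Med17 was neither. Unadjusted counts ran from 466 on slide 1 alone to 2598 with array weights. Signs turned for small differences: Med20 was 0.014 with the scanner's ratios, 0.015 with the series matrix, 0.073 with median centring, 0.090 in Cy5 alone and 0.070 on slide 1. Med11 was -0.020 in Cy5 alone, Med1 was 0.087 and Med14 -0.010 with the mean of all probes, and Med6 was -0.0061 on slide 1. Leaving out 1 rat, Med6 ran from -0.036 to 0.093, Med8 from -0.047 to 0.131, Med20 from -0.031 to 0.017 and Med1 from -0.133 to 0.0030. The cause was not tested. No paired analysis was possible because telmisartan and control rats share no replicate numbers. Array position moves with the group, and all Med17 values rest on 1 spot per array.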
